A study of Mus musculus with 56 samples.

Results

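The Ruminococcaceae of the mouse gut are described here, by genus and by amplicon sequence variant (ASV, a distinct 16S rRNA gene sequence), in the contents of the small intestine (SI) and the large intestine (LI). The members were all ASVs that the taxonomy of the deposited table places in the family Ruminococcaceae. They were 164 of 938 ASVs, of which 155 had a count in the libraries used, out of 864 ASVs with a count. Bacterial 16S rRNA genes were sequenced in 56 libraries from 28 male mice, with 1 SI and 1 LI library per mouse. Wild-type C57BL/6J mice (WT) and mice without the melanocortin 4 receptor (MC4R KO) were fed a normal diet (ND) or a Western diet (WD) for 12 weeks from the age of 10 weeks. Of the wild-type mice, 6 received the ND (WT-ND) and 6 the WD (WT-WD), and of the knockout mice 8 received the ND (KO-ND) and 8 the WD (KO-WD). MC4R acts in the hypothalamus to restrain feeding, and mice that lack it overeat and grow obese. The WT mice were purchased and the KO mice came from a line made earlier, so genotype and origin of the mice cannot be told apart. All mice were housed singly in the same room.

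Ruminococcaceae are strictly anaerobic bacteria of the class Clostridia that live mainly in the hindgut. Many of them ferment plant polysaccharides and resistant starch, and several make butyrate, a short-chain fatty acid that the colonic epithelium uses as fuel. In the taxonomy used, *Ruminococcus* holds fibre-degrading cocci, among them the cellulose degrader *R. flavefaciens*. *Oscillospira* holds large gut bacteria first seen in the digestive tract of herbivores and rarely grown in culture. *Anaerotruncus* and *Butyricicoccus* hold species that make butyrate. By ASV count the family consisted of *Oscillospira* (77 ASVs, 73 with a count), *Ruminococcus* (39, 37 with a count), *Anaerotruncus* (3, all with a count) and *Butyricicoccus* (1, with a count). A further 31 ASVs (30 with a count) had been assigned no genus, and in 13 (11 with a count) the genus has no name. These are called the unassigned and the unnamed members below.

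Libraries held between 22550 and 35236 counts in all (median 29721), and every value is given as a share of that total. A share of 0 allows up to 3 counts, which is 0.00137% to 0.00165% of the pooled SI libraries of a group and 0.00126% to 0.00166% of the pooled LI libraries. Only counting error is covered by these limits, because amplified reads were not tied to single molecules. No count other than 0 was below 2, so a single read in a library may not show. Folds given below as at least rest on this limit of 3 counts and are not strict lower bounds. Where the only mouse of a group that held an ASV was left out, such a fold describes the remaining mice and not the group. A share can also move because other bacteria became more or less abundant. Among the SI libraries, replicate 5 of KO-ND stood apart from the rest of its group, with 0.964% Ruminococcaceae against 0% to 0.138% in the other 7, and results that rest on it are given with and without it. SI and LI libraries of the same number were taken as the same mouse. Over all ASVs, the mean Bray-Curtis similarity of such pairs was 0.646, 0.536, 0.599 and 0.562 in WT-ND and WT-WD and then KO-ND and KO-WD mice, against 0.556, 0.43, 0.436 and 0.488 for different numbers of the same group. The SI library was most like the LI library of its own number in 4 of 6, 3 of 6, 3 of 8 and 2 of 8 mice, so the files themselves bear out the pairing only in part.

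The first comparison was between the sites. Ruminococcaceae were more abundant in the LI than in the SI in all 28 mice. In the LI every library held members of the family, while 7 of the 28 SI libraries held none. The log2 ratio of the LI to the SI share (0.5 added to each count) was 4.33 ± 4.21 (SD, n = 6) in WT-ND, 4.06 ± 1.35 (n = 6) in WT-WD, 5.62 ± 2.16 (n = 8) in KO-ND and 9.06 ± 2.10 (n = 8) in KO-WD. A two-sided exact sign-flip test over the mice of each group gave an adjusted p = 0.0312 in both WT groups (n = 6) and 0.0156 in both KO groups (n = 8), in each case from the smallest p that the number of mice allows. With 5 mice the test cannot pass, so both WT calls are lost when any 1 mouse is left out. The LI to SI ratio was larger in KO-WD than in the other groups. Its log2 value exceeded that of WT-WD by 5.00 (exact two-sided permutation test, adjusted over 5 contrasts, p = 0.00999), that of WT-ND by 4.73 (p = 0.0333, exact) and that of KO-ND by 3.45 (p = 0.0183, exact). With 5 in place of 0.5 added to each count these differences were 2.80, 3.18 and 2.16, and all passed. No count of the family was found in 5 of the 8 KO-WD SI libraries. This contrast was chosen after the values had been seen.

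The make-up of the family also differed by site. *Ruminococcus* made up 61.6% of the family's counts in the SI and 28.4% in the LI. *Oscillospira* made up 15.3% in the SI and 46.4% in the LI. The unassigned members accounted for 22.3% and 8.85%, and the unnamed members for 0.85% and 15.1%. *Anaerotruncus* held 1.18% of the LI counts of the family and none in the SI. These values pool all libraries of a site, so mice with many counts weigh most. Within LI libraries, the group medians were 12.9% to 22.9% for *Ruminococcus*, 48.8% to 61.5% for *Oscillospira* and 2.34% to 7.78% for the unnamed members. WT-WD replicates 4 and 5 held 82.9% and 59.4% unnamed members there. In SI libraries with the family, the medians of the unassigned members were 0% to 12%, and WT-WD replicate 2 had 56.9%. A *Ruminococcus* ASV was the most abundant member in 13 of the 21 SI libraries that held the family, while an *Oscillospira* ASV led in 12 of the 28 LI libraries. All 5 tested genera or genus classes were higher in the LI in an edgeR quasi-likelihood fit that took the mouse as a block, where 39 of 47 genera of the whole table (83%) passed. Their log2 fold changes of LI over SI were 8.08 ± 0.44 (SE) for the unnamed members, 6.97 ± 0.68 for *Oscillospira*, 5.32 ± 0.76 for the unassigned members and 4.25 ± 0.89 for *Ruminococcus*, and the median of all 47 genera was 4.25. For *Anaerotruncus*, which had no count in the SI, no fold is given. Of the 88 occurrences of a member ASV in the SI of a mouse, 64 (72.7%) were also found in the LI library of the same number, and of the 1142 occurrences of all other ASVs 809 (70.8%) were. The members' share was 75% in WT-ND, 79.1% in WT-WD, 52.9% in KO-ND and 75% in KO-WD mice, the last from 4 occurrences.

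**Figure D1:**
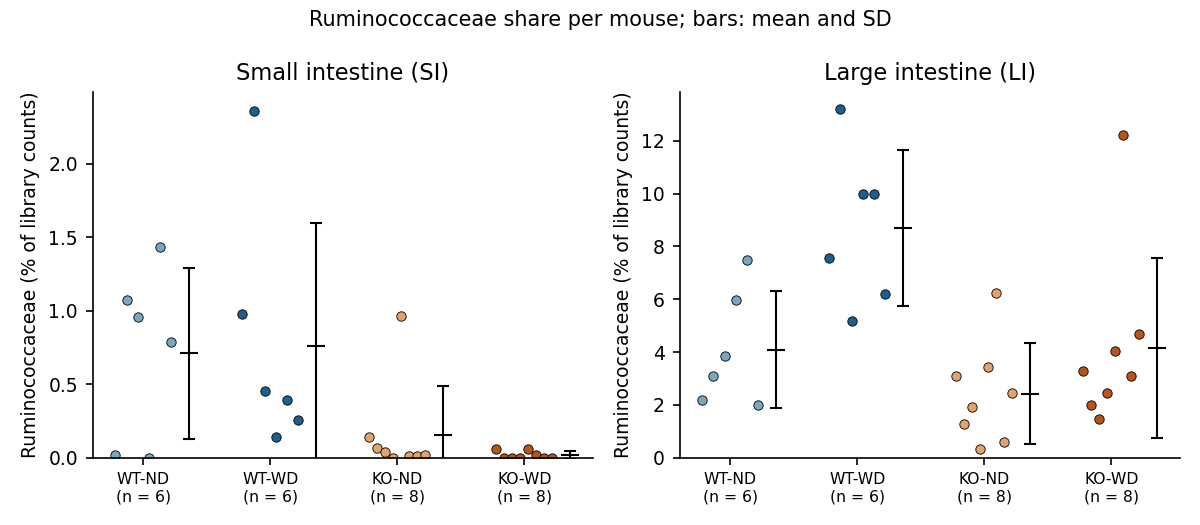
Share of Ruminococcaceae in each library (points, % of library counts) in the SI and the LI of the 4 groups, with mean and SD beside them (cut off at 0). In the SI all 8 KO-WD mice lay below the lowest WT-WD mouse (0.138%), and in the LI 7 of 8 KO-WD mice lay below the lowest WT-WD mouse (5.18%).

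The next comparisons were between genotypes and diets within the SI. The family's share there ranged from 0% to 1.43% (median 0.871%) in WT-ND, from 0.138% to 2.36% (median 0.423%) in WT-WD, from 0% to 0.964% (median 0.0279%) in KO-ND and from 0% to 0.0626% (median 0%) in KO-WD mice. Only 3 of the 8 KO-WD mice had any count of the family in the SI, and the highest of them lay below the lowest WT-WD mouse. The mean share was 0.762% ± 0.832 (SD, n = 6) in WT-WD and 0.0178% ± 0.0277 (n = 8) in KO-WD mice. The log2 share fell by 6.30 (exact two-sided permutation test, adjusted over 10 contrasts, p = 0.00666, from the smallest p that the design allows). With 5 in place of 0.5 added to each count, it fell by 4.09 with the same adjusted p. KO-WD against WT-ND gave a log2 difference of -4.84, which did not pass (adjusted p = 0.0666, exact). It passed without WT-ND replicate 4, the WT-ND mouse with no count of the family (log2 difference -6.20, adjusted p = 0.0311, exact). The other SI contrasts did not pass, with adjusted p = 0.519 for WT-WD against WT-ND, 0.258 for KO-ND against WT-ND and 0.141 for KO-WD against KO-ND (exact). Without KO-ND replicate 5, the log2 difference of KO-ND against WT-ND moved from -2.38 to -3.06 (adjusted p = 0.16, exact) and that of KO-WD against KO-ND from -2.46 to -1.78 (adjusted p = 0.199, exact).

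The family's share of the LI ranged from 1.98% to 7.5% (median 3.48%) in WT-ND, from 5.18% to 13.2% (median 8.78%) in WT-WD, from 0.315% to 6.25% (median 2.2%) in KO-ND and from 1.46% to 12.2% (median 3.2%) in KO-WD mice. WT-WD mice had the highest shares, and 4 of the 6 lay above all WT-ND mice. The mean share was 4.1% ± 2.21 (SD, n = 6) in WT-ND and 8.69% ± 2.95 (n = 6) in WT-WD mice, and the log2 share rose by 1.19 (exact permutation test, adjusted p = 0.0433). KO-WD mice averaged 4.15% ± 3.41 (n = 8), and their log2 share fell by 1.29 relative to WT-WD mice (exact permutation test, adjusted p = 0.0433), with 7 of 8 mice below all WT-WD mice. KO-WD replicate 6 had the highest KO share, 12.2%, and without it the difference was -1.56 (adjusted p = 0.00583, exact). KO-ND mice averaged 2.42% ± 1.91 (n = 8), and neither KO-ND against WT-ND (log2 difference -1.09, adjusted p = 0.183, exact) nor KO-WD against KO-ND (0.98, adjusted p = 0.183, exact) passed. KO-WD and WT-ND differed by -0.11 on the log2 scale (adjusted p = 0.82, exact).

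Both LI calls lay close to the threshold. The WT-WD against WT-ND call was lost in 9 of the 12 fits that left out 1 library and was kept without WT-WD replicate 3, WT-ND replicate 4 or WT-ND replicate 5 (adjusted p = 0.0377 to 0.0666 over the 12, exact). That of KO-WD against WT-WD was lost in 11 of 14 and was kept without KO-WD replicate 6, KO-WD replicate 8 or WT-WD replicate 3 (adjusted p = 0.00583 to 0.0666, exact). The 2 most abundant ASVs of the family, ASV_028 and ASV_033, together held 24.9% of its counts. Without them the WT-WD against WT-ND difference was 0.62 and that of KO-WD against WT-WD was -1.23, and neither passed (adjusted p = 0.253 and 0.0599, exact). The mean LI shares without these ASVs were 3.96% ± 2.25 in WT-ND, 6.35% ± 3.87 in WT-WD, 1.69% ± 1.01 in KO-ND and 2.43% ± 0.884 in KO-WD mice.

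The family was set against Lachnospiraceae, the other large family of gut Clostridia with many butyrate producers. In the SI, Lachnospiraceae were 2.87% ± 2.17 of the counts in WT-ND, 7.15% ± 3.8 in WT-WD, 1.01% ± 1.75 in KO-ND and 0.352% ± 0.699 in KO-WD mice. Without replicate 5 of each KO group, the library with the highest value, the KO means were 0.43% ± 0.617 and 0.11% ± 0.151. In the LI they were 6.85% ± 2.45, 11.9% ± 7.52, 4.65% ± 2.56 and 6.86% ± 1.7 in the same order. The log2 ratio of Ruminococcaceae to Lachnospiraceae passed in none of the 10 contrasts (exact permutation tests, lowest unadjusted p = 0.194, lowest adjusted p = 0.938). Its difference was 0.06 for KO-WD against WT-WD in the SI and -0.69 in the LI. The SI value averaged unlike mice, as 5 of the 8 KO-WD mice lay below all WT-WD mice and 2 above. It also leaned on the 0.5 added to each count, since 5 of the 8 KO-WD libraries held no count of Ruminococcaceae. With other settings or with single libraries left out, it spanned -0.46 to 1.61. Clostridiaceae had mean SI shares of 1.33% ± 1.62, 6.22% ± 5.17, 9.22% ± 13.4 and 15.2% ± 10.3 in the same order, of which KO-ND had 4.72% ± 4.54 without replicate 5 (40.7%). Clostridiales without a named family had 0.321% ± 0.181, 0.156% ± 0.233, 0.613% ± 1.04 and 0.00359% ± 0.0101, and KO-ND had 0.363% ± 0.822 without replicate 5. No test was made of these other shares.

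**Figure D2:**
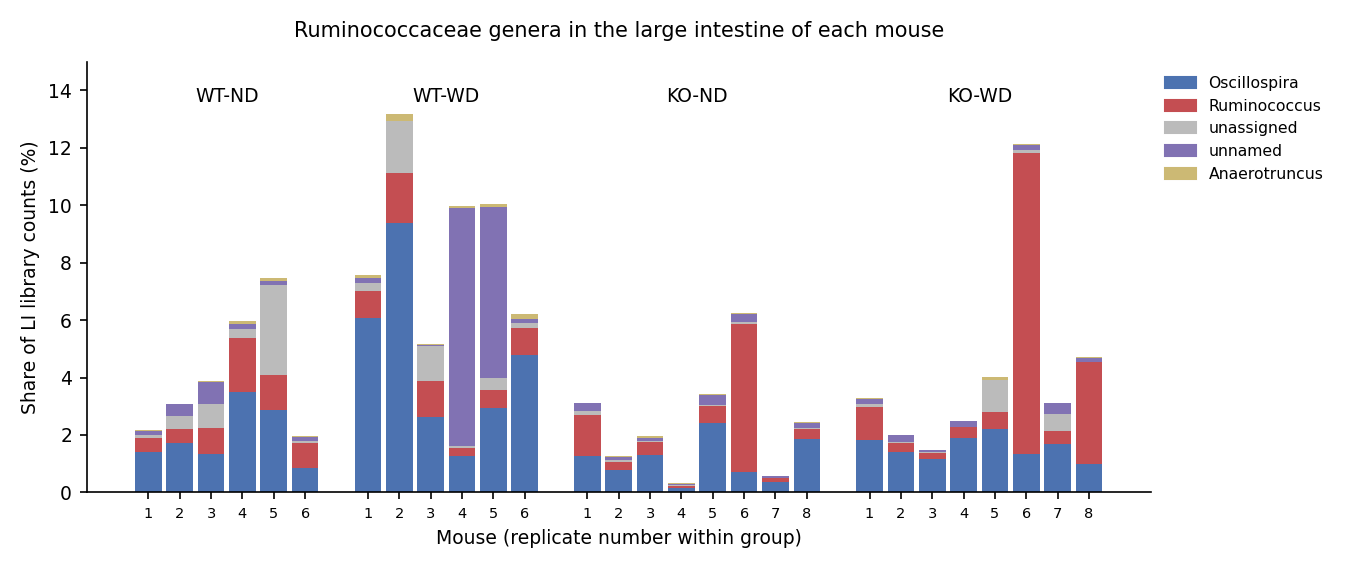
Stacked bars of the share of each Ruminococcaceae genus or genus class in the LI library of each mouse (% of library counts), by group and replicate number. The bars of WT-WD replicates 4 and 5 consist mostly of the unnamed class (8.28% and 5.95%), and those of KO-ND replicate 6 and KO-WD replicates 6 and 8 mostly of *Ruminococcus* (5.14%, 10.5% and 3.56%).

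Genera were tested by edgeR's quasi-likelihood test at an adjusted p under 0.05, Benjamini-Hochberg adjusted over every genus that reached 0.01% on average and was found in 4 or more libraries of the fit. Within the family, *Oscillospira* held the most counts in the LI. Its LI share ranged from 0.834% to 3.49% (median 1.56%) in WT-ND, from 1.25% to 9.39% (median 3.86%) in WT-WD, from 0.154% to 2.42% (median 1.02%) in KO-ND and from 0.976% to 2.21% (median 1.54%) in KO-WD mice. The KO-WD mice lay close together, while the WT-WD mice were spread widely and overlapped with them only through replicate 4 (1.25%). Relative to WT-WD mice (4.51% ± 2.93, n = 6), *Oscillospira* fell 2.89-fold in KO-WD mice (1.56% ± 0.413, n = 8, log2 fold change -1.53 ± 0.47 SE, adjusted p = 0.0204). It was the only member genus that passed in this LI contrast, where 28.9% of all 45 genera passed and their median log2 fold change was -0.627. The call was lost without WT-WD replicate 2 (log2 fold change -1.18, adjusted p = 0.0663), the mouse with the highest share, and with the exact rank-sum test (adjusted p = 0.0562). With TMM scaling, which moved the median of all genera in this contrast by 0.50 on the log2 scale, the change was -0.85 and did not pass (adjusted p = 0.177; over all alternatives 0.0104 to 0.225). *Oscillospira* was 2.32-fold higher on average in WT-WD than in WT-ND mice, but the difference did not pass (log2 fold change 1.21 ± 0.57, adjusted p = 0.229), and it was 1.76-fold lower in KO-ND than in WT-ND mice (adjusted p = 0.406).

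In the SI, *Oscillospira* was present in 5 of 6 WT-ND, 6 of 6 WT-WD, 3 of 8 KO-ND and 2 of 8 KO-WD mice. Its highest SI shares were 0.136%, 0.54%, 0.109% and 0.0348% in these groups. It was lower in KO-WD than in WT-WD mice (0.00688% ± 0.0133 against 0.173% ± 0.204, 25.2-fold, log2 fold change -4.56 ± 1.73, adjusted p = 0.0348), in a contrast where 55.2% of all 29 genera passed. The median log2 fold change of all 29 genera in this contrast was -3.67. Of the 8 KO-WD mice, 7 lay below all WT-WD mice. The size and the call rested on single libraries. Without KO-WD replicate 5 (0.0348%), *Oscillospira* was 59.8-fold lower (adjusted p = 0.0155), and without WT-WD replicate 1 (0.54%) it was 14.5-fold lower and did not pass (adjusted p = 0.0594). The highest KO-ND value came from replicate 5.

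Within the family, *Ruminococcus* held the most counts in the SI. Its SI share ranged from 0% to 1.22% (median 0.673%) in WT-ND, from 0.0423% to 0.733% (median 0.218%) in WT-WD, from 0% to 0.831% (median 0.0194%) in KO-ND and from 0% to 0.0598% (median 0%) in KO-WD mice. Only 2 of 8 KO-WD mice had any *Ruminococcus* there. KO-WD mice were lower than WT-WD mice (0.011% ± 0.022 against 0.307% ± 0.243, 28-fold, log2 fold change -4.75 ± 1.85, adjusted p = 0.0355) and lower than WT-ND mice (0.549% ± 0.473, 50.1-fold, log2 fold change -5.59 ± 2.01, adjusted p = 0.0271), in contrasts where 55.2% and 39.1% of all genera passed. The median log2 fold change of all genera in these contrasts was -3.67 against WT-WD and -0.701 against WT-ND mice. WT-ND replicates 1 and 4 also had no *Ruminococcus* in the SI, so the KO-WD and WT-ND groups overlapped. Without KO-WD replicate 1 (0.0598%) the differences were 77.3-fold from WT-WD and 138-fold from WT-ND mice. The call against WT-ND mice was lost without WT-ND replicate 5 (1.22%), where the difference was 37.8-fold (adjusted p = 0.0639, edgeR), and that against WT-WD mice was kept without WT-WD replicate 2 (adjusted p = 0.0422). KO-ND mice averaged 0.135% ± 0.285, and 0.0351% ± 0.0518 without replicate 5. Which members passed in KO-WD against WT-WD mice in the SI turned on the filter. With no filter, *Oscillospira* and *Ruminococcus* missed the threshold (adjusted p = 0.0672 and 0.0631) and the unassigned and unnamed members passed (0.00589 and 0.0176). With all 4 groups in 1 fit, *Oscillospira*, *Ruminococcus* and the unassigned members passed (0.0269, 0.0282 and 0.00228).

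*Ruminococcus* did not pass in any LI contrast. Its mean LI share was 0.977% ± 0.518 in WT-ND, 0.969% ± 0.506 in WT-WD, 1.06% ± 1.7 in KO-ND and 2.15% ± 3.56 in KO-WD mice, but the medians, 0.88%, 0.944%, 0.396% and 0.53%, were ordered differently from the means. The high KO means came from a few mice, with 5.14% in KO-ND replicate 6 and 10.5% and 3.56% in KO-WD replicates 6 and 8. KO-WD against WT-WD had a log2 fold change of 1.15 ± 0.92 (adjusted p = 0.382), while 6 of the 8 KO-WD mice lay within or below the WT-WD range. For KO-ND against WT-ND the log2 fold change was 0.11 ± 0.84 (adjusted p = 0.918), but the sign was not stable. DESeq2 gave -1.18 (adjusted p = 0.0151), and the fit with the replicate number as a block gave -0.50 (adjusted p = 0.851). Without ASV_028, which is described below, the *Ruminococcus* share of the LI was 0.497% to 1.88% in WT-ND, 0.281% to 1.74% in WT-WD, 0.0642% to 0.577% in KO-ND and 0.212% to 0.639% in KO-WD mice. Its means were then 0.977% ± 0.518, 0.969% ± 0.506, 0.327% ± 0.162 and 0.423% ± 0.173. This remainder was chosen after the values had been seen and was not tested.

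**Figure D3:**
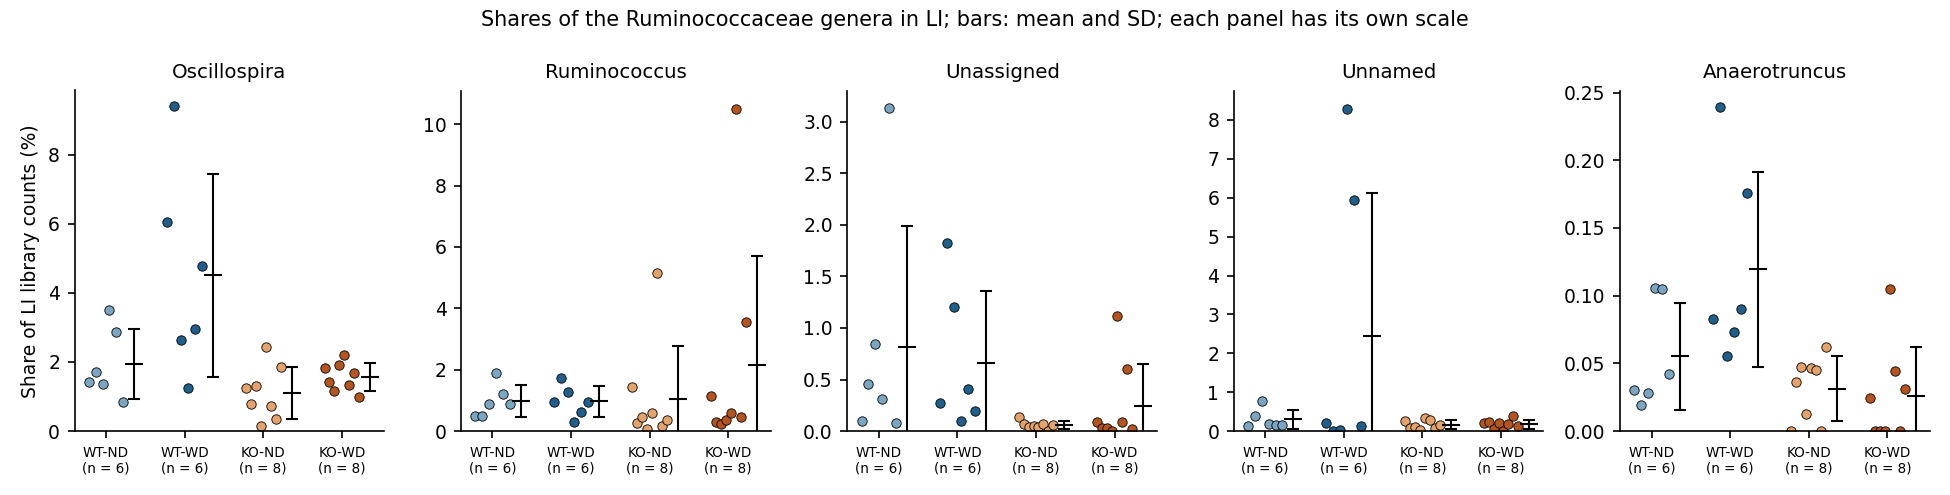
LI shares (% of library counts) of *Oscillospira*, *Ruminococcus*, the unassigned members, the unnamed members and *Anaerotruncus*, with a point per mouse and mean and SD beside them (cut off at 0); each panel has its own scale. *Oscillospira* reached 9.39% in WT-WD mice and at most 2.21% in KO-WD mice, and all but 1 of the KO-ND mice had a lower unassigned share than any WT-ND mouse.

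The unassigned members, for which the classifier gave the family but no genus, were the only genus class that passed in KO-ND against WT-ND mice in the LI, where 29.5% of all 44 genera passed. Their LI share ranged from 0.0749% to 3.13% (median 0.383%) in WT-ND, from 0.0995% to 1.82% (median 0.337%) in WT-WD, from 0% to 0.134% (median 0.0501%) in KO-ND and from 0% to 1.12% (median 0.0598%) in KO-WD mice. All but 1 of the KO-ND mice lay below all WT-ND mice. The KO-ND mean was 0.0563% ± 0.0383 (n = 8) against 0.818% ± 1.17 (n = 6) in WT-ND, a 14.5-fold difference (log2 fold change -3.85 ± 0.95, adjusted p = 0.00401). WT-ND replicate 5 alone held 3.13%, and without it the difference was 6.31-fold (log2 fold change -2.65, adjusted p = 0.0271). KO-WD mice were 2.69-fold lower than WT-WD mice on average, but this did not pass (adjusted p = 0.382), and KO-WD replicates 5 and 7 held 1.12% and 0.599%. In the SI the unassigned members were found in 3 of 6 WT-ND, 3 of 6 WT-WD, 2 of 8 KO-ND and 0 of 8 KO-WD mice. KO-ND against WT-ND did not pass there (log2 fold change -4.50 ± 1.86, adjusted p = 0.141), but it did without KO-ND replicate 5 (-5.99, adjusted p = 0.0368).

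The unnamed members ranged in the LI from 0.137% to 0.767% (median 0.171%) in WT-ND, from 0.0385% to 0.337% (median 0.131%) in KO-ND and from 0% to 0.378% (median 0.198%) in KO-WD mice. WT-WD mice held 0.197%, 0%, 0.0338%, 8.28%, 5.95% and 0.13% in replicates 1 to 6, so that replicates 4 and 5 lay far above the other mice of all groups and the rest within or below their range. The WT-WD mean of 2.43% ± 3.7 was 14.1-fold above the KO-WD mean of 0.173% ± 0.117, and the difference missed the threshold (log2 fold change of KO-WD over WT-WD -3.81 ± 1.46, adjusted p = 0.0506). It passed with DESeq2 (adjusted p = 0.0074), with all 4 groups in 1 fit (0.0108) and without WT-WD replicate 2 (0.0256), WT-WD replicate 3 (0.0429) or KO-WD replicate 5 (0.0498), while the rank-sum test, which takes no account of how far replicates 4 and 5 lie, gave 1.0 (exact). The LI means without ASV_033, which is described below, were 0.162% ± 0.0163 in WT-ND and 0.0923% ± 0.0709 in WT-WD mice. In KO-ND and KO-WD mice they were 0.167% ± 0.11 and 0.173% ± 0.117, so that WT-WD had the lowest mean and not the highest. This remainder was chosen after the values had been seen and was not tested. In the SI the unnamed members were found in 3 libraries, all WT, at up to 0.06%.

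*Anaerotruncus* was present in the LI of all 12 WT mice, in 6 of 8 KO-ND mice and in 4 of 8 KO-WD mice. Its LI share ranged from 0.0191% to 0.106% in WT-ND, from 0.0553% to 0.239% in WT-WD, from 0% to 0.0621% in KO-ND and from 0% to 0.105% in KO-WD mice. Although 7 of 8 KO-WD mice lay below all WT-WD mice, the difference did not pass (4.66-fold, log2 fold change -2.20 ± 1.19, adjusted p = 0.182). It passed without KO-WD replicate 5, the mouse with 0.105% (log2 fold change -3.02, adjusted p = 0.0498) and with the exact rank-sum test (adjusted p = 0.036). *Anaerotruncus* had no count in any of the 28 SI libraries. *Butyricicoccus* was represented by a single ASV, ASV_879, named as *B. pullicaecorum*, a butyrate producer known from the chicken caecum. It had 5 counts in all, in the LI of WT-ND replicate 5 (0.0169%), and was not tested.

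No member genus passed in the remaining contrasts. These were, in the SI, WT-WD against WT-ND (0 of 3 members, 0% of 32 genera passed), KO-ND against WT-ND (0 of 3, 12.5% of 24) and KO-WD against KO-ND (0 of 2, 4.17% of 24), and, in the LI, WT-WD against WT-ND (0 of 5, 2.56% of 39), KO-WD against KO-ND (0 of 5, 0% of 43) and KO-WD against WT-ND (0 of 5, 30.2% of 43). At an unadjusted p under 0.05 there was 1 member, the unassigned class, in the SI of KO-ND against WT-ND mice and none in the other 5. The genotype by diet interaction, which asks whether the WD moved KO mice differently from WT mice, passed for no genus in the SI (0% of 35) or the LI (0% of 48), members included. The lowest member p values were 0.0331 unadjusted and 0.193 adjusted for the unassigned class in the SI (log2 -4.74 ± 2.17), and 0.07 and 0.756 for the unnamed class in the LI (log2 -2.97 ± 1.58).

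At the level of ASVs the family was unevenly spread over the mice. Of the 155 members with a count, 59 were found in 1 mouse only, 46 in 2 to 4 mice, 33 in 5 to 13 mice and 17 in 14 or more, with a highest value of 22 mice. By genotype, 49 (31.6%) were found in WT mice only, 45 (29%) in KO mice only and 61 (39.4%) in both. Among the 709 other ASVs these shares were 34.7%, 42.9% and 22.4%, and among the 196 Lachnospiraceae ASVs 36.7%, 25% and 38.3%. Within the family, 46.6% of *Oscillospira* ASVs and 29.7% of *Ruminococcus* ASVs were found in both genotypes. An ASV found in 1 mouse only cannot be found in both genotypes. All these shares include such ASVs, so they also depend on how rare the ASVs of a set were, and no difference between sets was tested. The 12 most abundant ASVs held 59.1% of the family's counts, and 17 different ASVs were the most abundant member in at least 1 LI library.

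**Figure D4:**
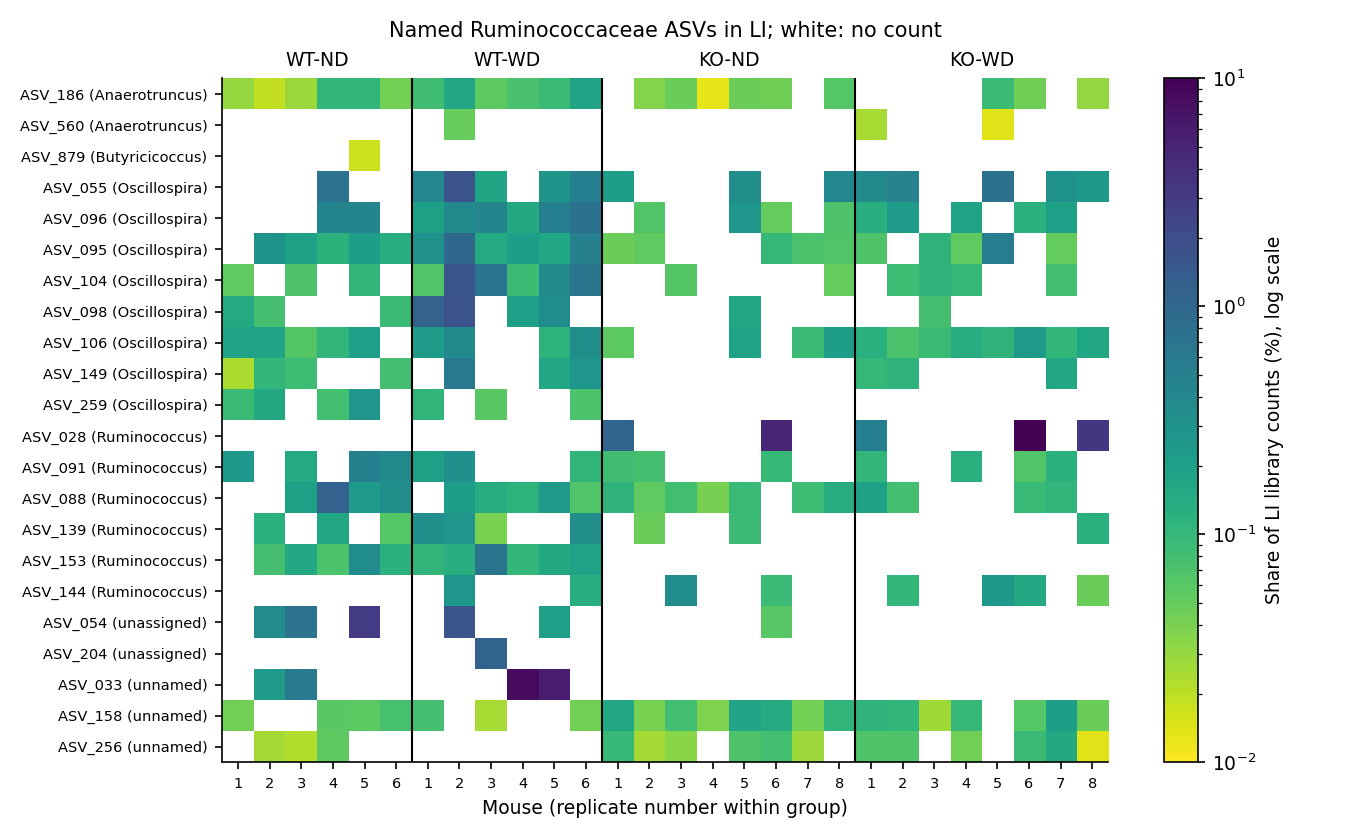
LI shares (% of library counts, log colour scale, white for no count) of the 22 Ruminococcaceae ASVs named by abundance or by size of change, by genus and mouse. ASV_028 was found in KO mice only and ASV_033 in WT mice only, and ASV_153 was found in the LI of 11 of 12 WT mice and of no KO mouse.

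The 2 most abundant ASVs were each found in 1 genotype and in few mice. ASV_028, the only member named as *R. flavefaciens* with a count, was found in 5 of 16 KO mice and in 0 of 12 WT mice. Its LI share was 1.05% and 4.78% in KO-ND replicates 1 and 6, and 0.503%, 9.94% and 3.35% in KO-WD replicates 1, 6 and 8. It also had 0.0131% in the SI of KO-ND replicate 6. ASV_033, of the unnamed class, was found in 4 of 12 WT mice and in 0 of 16 KO mice, with 0.227% and 0.599% in the LI of WT-ND replicates 2 and 3, and 8.17% and 5.88% in WT-WD replicates 4 and 5. In 5 LI libraries a single ASV held over 50% of the family's counts, and in each of them it was ASV_028 (3 libraries, 71.1% to 81.6% of the family) or ASV_033 (2 libraries, 81.8% and 58.6%). ASV_028 met the filter only in KO-WD against KO-ND in the LI and ASV_033 only in WT-WD against WT-ND in the LI, where neither passed (log2 fold change 1.24 ± 1.92 and 4.08 ± 2.69, adjusted p = 0.968 and 0.859, edgeR). Neither was tested between the genotypes.

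Among the *Ruminococcus* ASVs that passed, ASV_153 had the largest fold between the genotypes. It was found in the LI of 5 of 6 WT-ND and 6 of 6 WT-WD mice, with 0.0698% to 0.352% where present in WT-ND and 0.102% to 0.709% in WT-WD, and in no KO mouse and no SI library. Its mean LI share was 0.129% ± 0.121 in WT-ND and 0.231% ± 0.237 in WT-WD mice. It was thus at least 102-fold lower in KO-ND than in WT-ND (adjusted p = 0.00274), at least 178-fold lower in KO-WD than in WT-WD (adjusted p = 0.00195) and at least 99.5-fold lower in KO-WD than in WT-ND mice (adjusted p = 0.00281), where a group without a count was set to 3 counts over its pooled libraries. Without WT-WD replicate 3 (0.709%) the WT-WD mean was 0.135% ± 0.035 and the bound 104-fold, and without WT-ND replicate 5 (0.352%) the bounds against WT-ND were 66.9-fold for KO-ND and 65.1-fold for KO-WD mice. Since a single read in a library may not show, these folds and the others given as at least are not strict bounds. The p values come from the edgeR quasi-likelihood test over all ASVs that met the filter. An ASV with a count in none or only 1 of the mice of a group met the filter only because of the other group. Its p value therefore adds nothing to the counts of mice. This holds here and for the other ASVs below that 1 of the compared groups lacked or had in 1 mouse only. ASV_144 went the other way, with counts in 4 of 8 KO-WD and 0 of 6 WT-ND mice (0.0693% ± 0.0931, at least 41.7-fold higher, adjusted p = 0.0132; at least 26.2-fold without KO-WD replicate 5, where it no longer met the filter), but it was also found in 2 of 6 WT-WD mice (0.264% and 0.127%).

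The other abundant *Ruminococcus* ASVs, ASV_091, ASV_088 and ASV_139, were shared by both genotypes. ASV_091, the leading *Ruminococcus* ASV of the SI, was found in the SI of 4 of 6 WT-ND (0.156% to 0.911%), 3 of 6 WT-WD (0.0579% to 0.443%), 2 of 8 KO-ND (0.138% and 0.0557%) and 1 of 8 KO-WD mice (0.0598%). It was lower in KO-WD than in WT-ND mice (41.7-fold, log2 fold change -5.30 ± 1.97, adjusted p = 0.0248), but not without WT-ND replicate 5 (25.6-fold, adjusted p = 0.058). Without KO-WD replicate 1 no KO-WD mouse had it, and it was at least 189-fold lower. ASV_088 was found in 4 WT-WD mice (SI, 0.0423% to 0.0845%) and of no KO-WD mouse (at least 26.3-fold lower, adjusted p = 0.00832). In the LI both were found in each group, ASV_088 in 20 of 28 mice over both sites. ASV_139 was found in 7 of 12 WT and 3 of 16 KO mice and did not pass in any contrast.

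Of the *Oscillospira* ASVs, ASV_106, ASV_095, ASV_096 and ASV_055 were found in 21, 21, 17 and 14 mice of both genotypes. ASV_106 was present in the LI of all 8 KO-WD mice, at 0.071% to 0.234%. ASV_104 was highest in WT-WD mice, where it was found in all 6 (0.0646% to 1.56%), against 3 of 6 WT-ND mice (0.0534% to 0.105%), 2 of 8 KO-ND mice and 4 of 8 KO-WD mice (0.0799% to 0.111%). It did not pass in any contrast (lowest adjusted p = 0.07, KO-WD against WT-WD). ASV_098 reached 1.15% and 1.73% in the LI of WT-WD replicates 1 and 2 and was found in 1 of 8 KO-WD mice (0.0774%), a 59.1-fold difference in means (0.571% ± 0.71 against 0.00967% ± 0.0274, log2 fold change -5.82 ± 2.11, adjusted p = 0.0296). Without WT-WD replicate 2 the difference was 35.1-fold and did not pass (adjusted p = 0.0561), and without KO-WD replicate 3, the KO-WD mouse that had it, it was at least 385-fold. ASV_259 was found in 7 of 12 WT mice and in no KO mouse. It was at least 78.2-fold lower in KO-ND and at least 76.1-fold lower in KO-WD than in WT-ND mice (adjusted p = 0.00657 and 0.00484), and at least 50.9-fold and 49.6-fold without WT-ND replicate 5, where it no longer met the filter. ASV_149 was absent from all KO-ND libraries and was found in the LI of 4 of 6 WT-ND mice (0.0234% to 0.102%; at least 38.2-fold lower in KO-ND, adjusted p = 0.008), but 3 of 8 KO-WD mice had it (0.101% to 0.16%).

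Among the unassigned ASVs, ASV_054 reached 3.03% in WT-ND replicate 5 and 1.6% in WT-WD replicate 2. It was found in 5 of 12 WT and 1 of 16 KO mice (0.0604% in KO-ND replicate 6) and was 90.6-fold lower in the LI of KO-ND than of WT-ND mice (log2 fold change -6.41 ± 2.22, adjusted p = 0.0221). The WT-ND mean of 0.684% ± 1.18 fell to 0.216% ± 0.323 without replicate 5, which made the difference 28.6-fold, and without KO-ND replicate 6 it was at least 468-fold. In both cases ASV_054 no longer met the filter and was not tested. ASV_204 was found in 1 mouse only, WT-WD replicate 3, in both the SI (0.141%) and the LI (1.1%). Of the unnamed ASVs, ASV_158 was found in 15 of 16 KO and 7 of 12 WT mice and was the most widespread member, but it did not pass in any contrast. ASV_256 was found in the LI of 6 of 8 KO-WD mice (0.0137% to 0.149%) and of no WT-WD mouse (at least 34.4-fold higher in KO-WD, adjusted p = 0.00834), and in 3 of 6 WT-ND mice (0.0221% to 0.0551%). ASV_186 held most *Anaerotruncus* counts and was found in all 12 WT and 9 of 16 KO mice. ASV_560, the second *Anaerotruncus* ASV, was found in 3 LI libraries at up to 0.0497%.

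Of 3 more ASVs that passed, described here after their values had been seen, 2 had counts in both ND groups. Each of these 2 had a count in only 1 KO-ND mouse and met the filter only because of the WT-ND mice. Their p values therefore add nothing to the counts of mice. ASV_257 (unnamed) was found in the LI of all 6 WT-ND mice (0.0447% to 0.101%) and in 1 of 8 KO-ND mice (0.0302%), so that all KO-ND mice lay below all WT-ND mice (21.1-fold, log2 fold change -4.24 ± 1.48, adjusted p = 0.0226; at least 54.6-fold without that KO-ND mouse). ASV_287 (unassigned) was found in the LI of all 6 WT-ND mice (0.0163% to 0.0734%) and of 1 of 8 KO-ND mice (0.0173%; 16.2-fold, log2 fold change -3.78 ± 1.35, adjusted p = 0.0255; at least 24.4-fold without that KO-ND mouse). ASV_287 was also found in the LI of all 6 WT-WD mice (0.0338% to 0.0974%) and of 1 KO-WD mouse (0.0823%), and in the SI of KO-ND replicate 5 (0.0118%), whereas ASV_257 was found in 2 WT-WD and 4 KO-WD mice. The third, ASV_197 (*Oscillospira*), was found in the LI of 5 of 6 WT-ND mice (0.0169% to 0.0767%) and of no KO-ND mouse (at least 25.4-fold lower, adjusted p = 0.00389), and in 5 WT-WD (0.112% to 0.397%) and 2 KO-WD mice (0.037% and 0.086%).

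In counts of ASVs passing the edgeR test in the LI, 7 of 30 tested members (23.3%) passed in KO-ND against WT-ND, all lower in KO-ND, where 52.2% of all 182 ASVs passed. In KO-WD against WT-WD 3 of 39 (7.69%) passed, 1 higher and 2 lower, where 45.1% of all 182 ASVs passed, and in KO-WD against WT-ND 3 of 36 (8.33%), 1 higher and 2 lower, where 47.9% of 188 passed. These counts turned on the filter and the fit. More members passed with no filter, where ASVs found in 1 mouse only were also tested, and fewer in fits blocked by replicate. The fitted change was below 0 for 25 of 30, 27 of 39 and 23 of 36 tested members. The median log2 fold change was -1.43, -0.986 and -0.613 for the members and -0.418, -0.272 and 0.0388 for all ASVs tested. These sign counts were not tested, as ASVs of the same mice are not replicates. Between the diets, 0 of 37 members passed in WT mice, with 1 at an unadjusted p under 0.05, where 1.33% of all 150 ASVs passed, and 0 of 32 in KO mice, with 0 at an unadjusted p under 0.05, where 2.66% of 188 passed. Here the fitted change was above 0 for 25 of 37 and 20 of 32 members. Its median was 0.771 and 0.544 on the log2 scale for the members and 0.602 and 0.00118 for all ASVs tested. In the SI few members could be tested. There, 0 of 6 passed in WT-WD against WT-ND (0% of 66 ASVs in all), 0 of 2 in KO-ND against WT-ND (40% of 50), 1 of 2 in KO-WD against WT-WD (61.5% of 52) and 1 of 1 in KO-WD against WT-ND (54.5% of 44). For KO-WD against KO-ND, no member passed the filter (12.8% of 39 ASVs passed). Over all contrasts 12 ASVs of the family passed, 4 of *Oscillospira*, 4 of *Ruminococcus*, 2 unassigned and 2 unnamed, and in 10 of the 15 calls 1 of the compared groups had no count. In the other calls 1 of the compared groups had a count in 1 mouse only. With the exact rank-sum test 8 of the 15 calls were lost, those of ASV_054, ASV_088, ASV_098, ASV_144, ASV_149, ASV_256 and both of ASV_259.

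**Figure D5:**
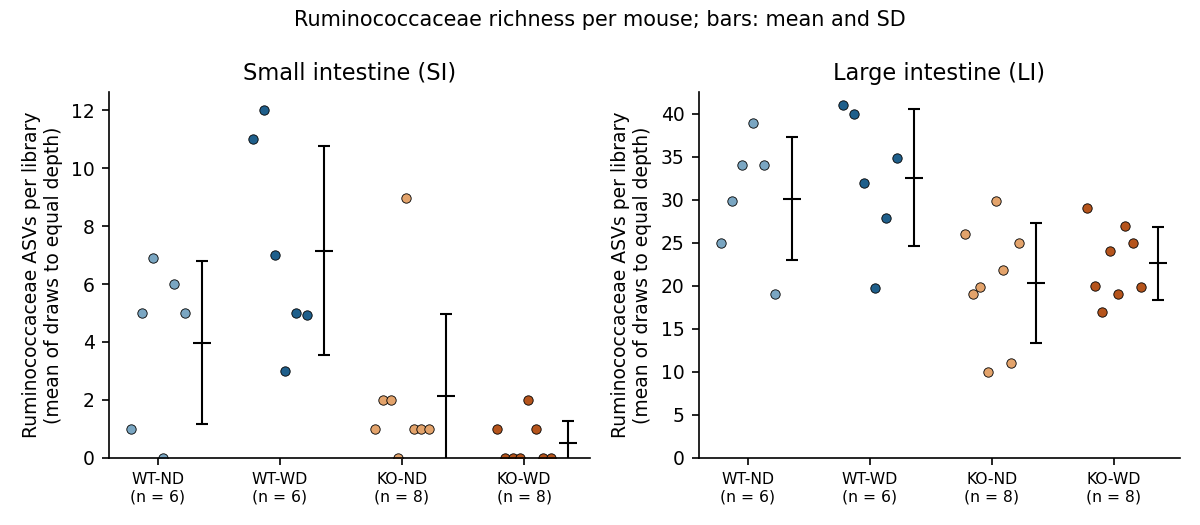
Number of Ruminococcaceae ASVs per library (points, mean of 100 draws of 22550 counts) in the SI and LI by group, with mean and SD beside them (cut off at 0). In the SI all 8 KO-WD mice had fewer ASVs than any WT-WD mouse, with 0 to 2 against 3 to 12.

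Richness, the number of members found, was compared at an equal depth of 22550 counts per library. In the SI it was 3.98 ± 2.8 (n = 6) in WT-ND, 7.15 ± 3.6 (n = 6) in WT-WD, 2.12 ± 2.84 (n = 8) in KO-ND and 0.5 ± 0.756 (n = 8) in KO-WD mice. Richness fell by 6.65 in KO-WD relative to WT-WD mice (exact two-sided permutation test, adjusted over 10 contrasts, p = 0.00666), and KO-ND replicate 5 had 8.98, against at most 2 in the other KO-ND mice. In the LI richness was 30.2 ± 7.2 in WT-ND, 32.6 ± 7.94 in WT-WD, 20.3 ± 7 in KO-ND and 22.6 ± 4.25 in KO-WD mice. The difference was -9.83 on ND (KO-ND against WT-ND, adjusted p = 0.0666, exact) and -9.998 on WD (KO-WD against WT-WD, adjusted p = 0.0666, exact), and neither passed. The groups overlapped, with 10 to 29.9 members in KO-ND and 19 to 39 in WT-ND mice. KO-ND against WT-ND passed without KO-ND replicate 5 or WT-ND replicate 6, KO-WD against WT-WD without WT-WD replicate 4, and KO-WD against WT-ND, where the difference was -7.55 (adjusted p = 0.0719, exact), without WT-ND replicate 6. The lowest adjusted p over these fits was 0.0389, 0.0155 and 0.0389 (exact). Between the diets, richness differed by 2.45 in WT and 2.28 in KO mice in the LI (adjusted p = 0.595 and 0.481, exact).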

How the data were processed

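The authors amplified the V3–V4 region of the 16S rRNA gene, matched primers with FASTX-Toolkit 0.0.14, filtered with Sickle 1.33, merged with FLASH 1.2.11, removed noisy and chimeric reads with DADA2 in QIIME 2 2021.4 and named ASVs against Greengenes 13_8. The deposited table holds raw counts per ASV, not normalized, and no count other than 0 is below 2. The placement of genera within families follows that release. Here, counts were summed by genus, an empty genus being unassigned and a blank one unnamed. Genera and ASVs were tested with edgeR 4.0.16 (quasi-likelihood, library totals as scaling; DESeq2 1.42.0 as an alternative) in R 4.3.3, fitted on the 2 groups compared over the whole table. Standard errors were derived from the F statistic (log2 fold change over root F). Family share, ratio and richness (100 seeded draws) were compared by exact permutation tests, on log2 shares with 0.5 added to each count, except richness. Statistics were checked on simulated normal values and simulated counts. These did not model features confined to a few mice of a group, so they do not show how the tests behave on such data. Named ASVs were the 12 most abundant, the 2 most abundant of each genus and the 3 largest called changes per contrast and site. The members, tests and lists were chosen with earlier results of these data known. The exact tests and plots were made in Python 3.11.15 with scipy 1.17.1, pandas 2.3.3, numpy 2.4.6 and matplotlib 3.10.9. Library totals were 22550 to 35236.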

Additional observations from a re-analysis of the deposited data

Results flagged for a closer look

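A library far from the others of its group was found in 12 of 47 sets of values examined (Dixon's test at 95%). That test flags about 1 in 20 sets of independent, normally distributed values. Shares with many zeros are not of this kind, and sets from the same library overlap, so the 12 cannot be set against that rate. In the SI of KO-ND mice these were 5 values of replicate 5, with a Ruminococcaceae share of 0.964%, *Oscillospira* at 0.109%, *Ruminococcus* at 0.831%, the unassigned members at 0.0237% and a richness of 8.98. The other KO-ND SI libraries had at most 0.138%, 0.0155%, 0.138%, 0.00869% and 2. In the LI of KO-WD mice, replicate 6 had a Ruminococcaceae share of 12.2% and a *Ruminococcus* share of 10.5%, against at most 4.7% and 3.56% in the others, and replicate 5 had 0.105% *Anaerotruncus* against at most 0.0447%. KO-ND replicate 6 had 5.14% *Ruminococcus* in the LI against at most 1.45%. WT-ND replicate 5 had 3.13% of unassigned members in the LI against at most 0.842%, and WT-WD replicate 2 had 1.34% in the SI against at most 0.197%. KO-WD replicate 1 had 0.0598% *Ruminococcus* in the SI, where the next library had 0.0278% and 6 had none.

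The LI to SI difference of the family's share was larger in KO-WD than in KO-ND mice by 3.45, than in WT-WD mice by 5.00 and than in WT-ND mice by 4.73 on the log2 scale, by an exact permutation test of the difference itself (adjusted p = 0.0183, 0.00999 and 0.0333).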

How the results depend on the processing

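In the LI, the share of WT-WD against WT-ND (log2 difference 1.19) no longer passed with centred log ratios (0.915) or without ASV_028 and ASV_033 (0.62). KO-WD against WT-WD (-1.293) no longer passed without these ASVs (-1.231). Both calls were also lost with the exact rank-sum test, which gives no log2 difference. Centred log ratios brought KO-ND against WT-ND (-1.964) and KO-WD against KO-ND (1.160) past the threshold in the LI. In the SI, KO-WD against WT-ND reached it with 5 added to each count (-3.282) and with centred log ratios (-4.565). With 5 added, the ratio to Lachnospiraceae turned sign in the SI for KO-WD against KO-ND (0.317) and against WT-ND (0.650), as did the LI minus SI difference of WT-WD against WT-ND (0.379), none of which had passed. The causes were not tested.

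Leaving out 1 library at a time gave log2 differences of -6.195 to -4.243 for the share of KO-WD against WT-ND in the SI, and in the LI of 1.012 to 1.396 for WT-WD against WT-ND, -1.557 to -1.120 for KO-WD against WT-WD and -0.370 to 0.103 for KO-WD against WT-ND. The ratio to Lachnospiraceae spanned, in the SI, -1.25 to 0.011 (WT-WD against WT-ND), -0.712 to 0.691 (KO-ND against WT-ND), -0.456 to 0.423 (KO-WD against WT-WD) and -1.19 to 0.102 (KO-WD against WT-ND), and in the LI -0.105 to 0.312 (KO-WD against KO-ND) and -0.397 to 0.017 (KO-WD against WT-ND). Richness spanned -4.28 to -2.90 (KO-WD against WT-ND, SI), -12.1 to -8.06 (KO-ND against WT-ND, LI), -12.6 to -8.33 (KO-WD against WT-WD, LI) and -9.78 to -5.78 (KO-WD against WT-ND, LI). The LI to SI ratio spanned 2.83 to 4.93 in WT-ND and 3.64 to 4.38 in WT-WD mice, where 5 mice allow no p below 0.0625. Member genera passing were 1 for KO-ND against WT-ND in the SI without KO-ND replicate 5, and 1 to 3 for KO-WD against WT-WD in the LI.

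Replicate numbers do not pair mice across groups (correlations of same-numbered deviations -0.512 to 0.49). For the share, the block was an exact sign-flip test of same-numbered mice. Contrasts of KO with WT mice then had 6 pairs and left out the KO mice without a partner. With 6 pairs the smallest p is 0.0312, which passes only if most of the 10 contrasts lie as low. The differences were -5.718 for KO-WD against WT-WD in the SI (adjusted p = 0.0977, exact), 1.187 for WT-WD against WT-ND and -1.353 for KO-WD against WT-WD in the LI. None passed, and since the test hardly could, nothing is concluded from this. The SI ratio of KO-WD against WT-WD was -0.393. With the block, member genera passing were 1 (KO-WD against WT-WD) and 0 (KO-WD against WT-ND) in the SI and 0 and 0 in the LI (KO-ND against WT-ND, KO-WD against WT-WD). Member ASVs passing were 0 and 0 in the same SI contrasts, and 2, 1 and 0 in the LI (KO-ND against WT-ND, KO-WD against WT-WD, KO-WD against WT-ND).

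Member genera passing were otherwise, in the SI, 1 for KO-ND against WT-ND with TMM, 1 for KO-WD against WT-WD at a filter of 0.1%, and 2 for KO-WD against WT-ND with no filter or all 4 groups in 1 fit. In the LI they were 4 for KO-ND against WT-ND with DESeq2, and for KO-WD against WT-WD 0 with TMM, 2 with DESeq2 and 2 with all 4 groups in 1 fit. Member ASVs passing with no filter were 7, 15, 23 and 11 in the SI (KO-ND against WT-ND, KO-WD against KO-ND, WT-WD and WT-ND) and 46, 47, 42 and 48 in the LI. With no filter, ASVs found in 1 mouse only were also tested. The share of all genera or ASVs that passed is not given for any alternative setting, here or above. These counts therefore show only how far the members' calls depended on the setting. DESeq2 gave 0 for KO-WD against WT-ND in the SI and 5 for KO-WD against WT-WD in the LI. The rank-sum test, chosen after seeing the data, gave 0 for KO-WD against WT-WD in the SI, and 4 for KO-ND against WT-ND and 8 for KO-WD against WT-WD in the LI. Among values for the genera and ASVs that had passed, under all alternatives that gave a value, 124 kept their call and 41 lost it, and none changed direction. These include fits without the highest library of each group, chosen after seeing the data. Scaling moved the median of all genera by -0.57 to 0.50 with TMM and by -0.69 to 1.43 with DESeq2 on the log2 scale over the 10 contrasts. Depth limits a group without a count to at most 0.00166% of its pooled libraries, but single reads in its libraries, which may not show, could raise this.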
